A study of Mus musculus with 6 samples.

Results

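The genes described here encode the parts of the lysosome that acidify it, digest its contents and form its membrane. They are the subunits of the vacuolar proton pump (V-ATPase), the cathepsins, the lysosome-associated membrane proteins (LAMPs) and the mucolipin channels. Members were chosen by gene symbol alone (symbols starting with Atp6v0, Atp6v1, Lamp plus a digit or Mcoln plus a digit, and Cts followed by a single letter). This rule found 47 of the 22050 genes in the deposited table, namely 13 V1 subunits, 9 V0 subunits, 13 cysteine cathepsins, 4 aspartic or serine cathepsins, 4 LAMPs, 3 mucolipins and Atp6v1fnb, which is named for its position beside Atp6v1f and is not a pump subunit. Messenger RNA was sequenced from the hippocampus of young mice given repeated injections of lidocaine, an anaesthetic given locally to stop nerve conduction (3 libraries), and of young control mice (3 libraries). Strain, sex, dose and number of injections are not given in the labels, and neither is what the control mice received. The old mice of the design were not analysed here. The comparison addresses what repeated lidocaine does to hippocampal gene expression. All identifiers in the table are rat Ensembl identifiers although the libraries are labelled as mouse, so counts may depend on how alike each gene is in the 2 species.

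Lysosomes break down proteins, lipids and sugars at acid pH. The V-ATPase pumps the protons in: its cytosolic V1 sector hydrolyses ATP and its membrane V0 sector carries protons across the membrane. In neurons the same pump also energises synaptic vesicles, which use the proton gradient to load transmitter. Cathepsins are the proteases of the lumen, LAMPs are the heavily glycosylated proteins that line the membrane, and mucolipins release calcium from the organelle. Many lysosomal genes carry the CLEAR element, an E-box around CACGTG to which the transcription factors TFEB and TFE3 bind.

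Mouse promoters are shown first, to give which of these genes carry the core of this element. Promoter sequences were taken from RefSeq for the mouse build GRCm38.p6 (250 bases before to 50 after each start), and 37 of the 47 genes were matched, 36 by symbol and 1 by a synonym. They are not rat sequences. The core CACGTG, which reads the same on both strands, was present in a promoter of 11 of the 37 matched genes and in 8.09% of all 27025 genes with a promoter. The longer TCACGTGA, which contains the core, was present in 6 of 37 (Atp6v0d1, Atp6v0e1, Atp6v1a, Ctsa, Ctsd and Mcoln1), against 1.12% of all genes. Stretches upstream of the start site are printed 5′ to 3′ in the direction of the gene, with each core in capitals, for genes of each class.
Lamp1, chr8:13159080-13159160, plus strand: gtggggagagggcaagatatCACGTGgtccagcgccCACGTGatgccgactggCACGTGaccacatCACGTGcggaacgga
Mcoln1, chr8:3500428-3500499, plus strand: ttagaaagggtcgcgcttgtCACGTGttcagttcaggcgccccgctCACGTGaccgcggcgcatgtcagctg
Atp6v0b, chr4:117887330-117887385, minus strand: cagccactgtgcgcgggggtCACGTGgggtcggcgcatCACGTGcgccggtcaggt
Atp6v1a, chr16:44139365-44139410, minus strand: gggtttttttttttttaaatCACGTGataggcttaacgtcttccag
Ctsd, chr7:142387900-142387945, minus strand: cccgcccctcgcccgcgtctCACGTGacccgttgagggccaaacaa
Ctsf, chr19:4855066-4855111, plus strand: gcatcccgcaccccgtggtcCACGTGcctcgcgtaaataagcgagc
The Lamp1 stretch holds 4 cores, the Mcoln1 and Atp6v0b stretches hold 2 each, and the other 3 stretches hold 1 each. A match describes these letters and is not evidence that a factor binds there.

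Estimated counts summed to between 16013017 and 16984995 per lidocaine library, and to between 13887604 and 15990264 per control library. Of 5 hippocampal markers, Wfs1, Fibcd1, Calb1 and Zbtb20 had counts in all 6 libraries, while Prox1, which marks granule cells of the dentate gyrus, was listed at 0 in lidocaine 1, lidocaine 2 and control 1. Their summed level was 841.8 to 1293.0 CPM (counts scaled to library size) with lidocaine and 1097.2 to 1170.8 CPM in controls. Wfs1, a marker of CA1 pyramidal cells, had 12306, 5555 and 13397 counts with lidocaine and 9792, 10725 and 9646 counts in controls, and its low value in lidocaine 2 goes with the lowest sum. The 10 microglial markers were all tested, and their summed level was 378.0 to 391.5 CPM with lidocaine and 318.5 to 413.2 CPM in controls. The 8 oligodendrocyte markers, whose cells make myelin, all had negative fold changes, with a summed level of 8075.6 to 11099.9 CPM in lidocaine libraries and 11205.3 to 12972.5 CPM in control libraries. Blood leukocyte markers summed to 3.9 to 6.9 CPM with lidocaine and 5.6 to 8.0 CPM in controls, with Cd3g and Elane listed at 0 in all 6 libraries.

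Lysosomal transcript levels in the lidocaine libraries lay close to those in the control libraries. Of the 47 genes, 32 had enough counts to be tested and 0 were called by edgeR's quasi-likelihood test at an adjusted p under 0.05, a threshold that 0.0149% of all 13408 tested genes passed. DESeq2 also called 0 of them, against 0.172% of all genes it tested. At an unadjusted p under 0.05, edgeR found 1 member, Lamp5, which was lower with lidocaine. The same threshold was passed by 4.36% of all tested genes, with 2.36% lower. DESeq2 found 2 members at an unadjusted p under 0.05, Lamp5 and Atp6v0e2, against 3.93% of all genes it tested. At an adjusted p under 0.1 edgeR's count was also 0 of 32, against 0.0298% of all tested genes. The 32 log2 fold changes of lidocaine over control were positive for 19 genes and negative for 13, with a median of 0.02, beside a median of 0.00 over all tested genes. In 25 of the 32 (78.1%) the difference was under 0.2 on the log2 scale, as it was for 74.3% of all tested genes. The 95% interval stayed within a 1.5-fold change in either direction for 26 of the 32 (81.2%), against 63.6% of all tested genes. These shares were not compared at a like gene level, and intervals were wide for members with few counts, such as Atp6v1c2 and Ctse. The labels do not say that the libraries come from separate animals, so p-values measure only the spread between these libraries. In whole tissue, fewer cells of a type and less RNA per cell cannot be told apart.

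**Figure D1:**
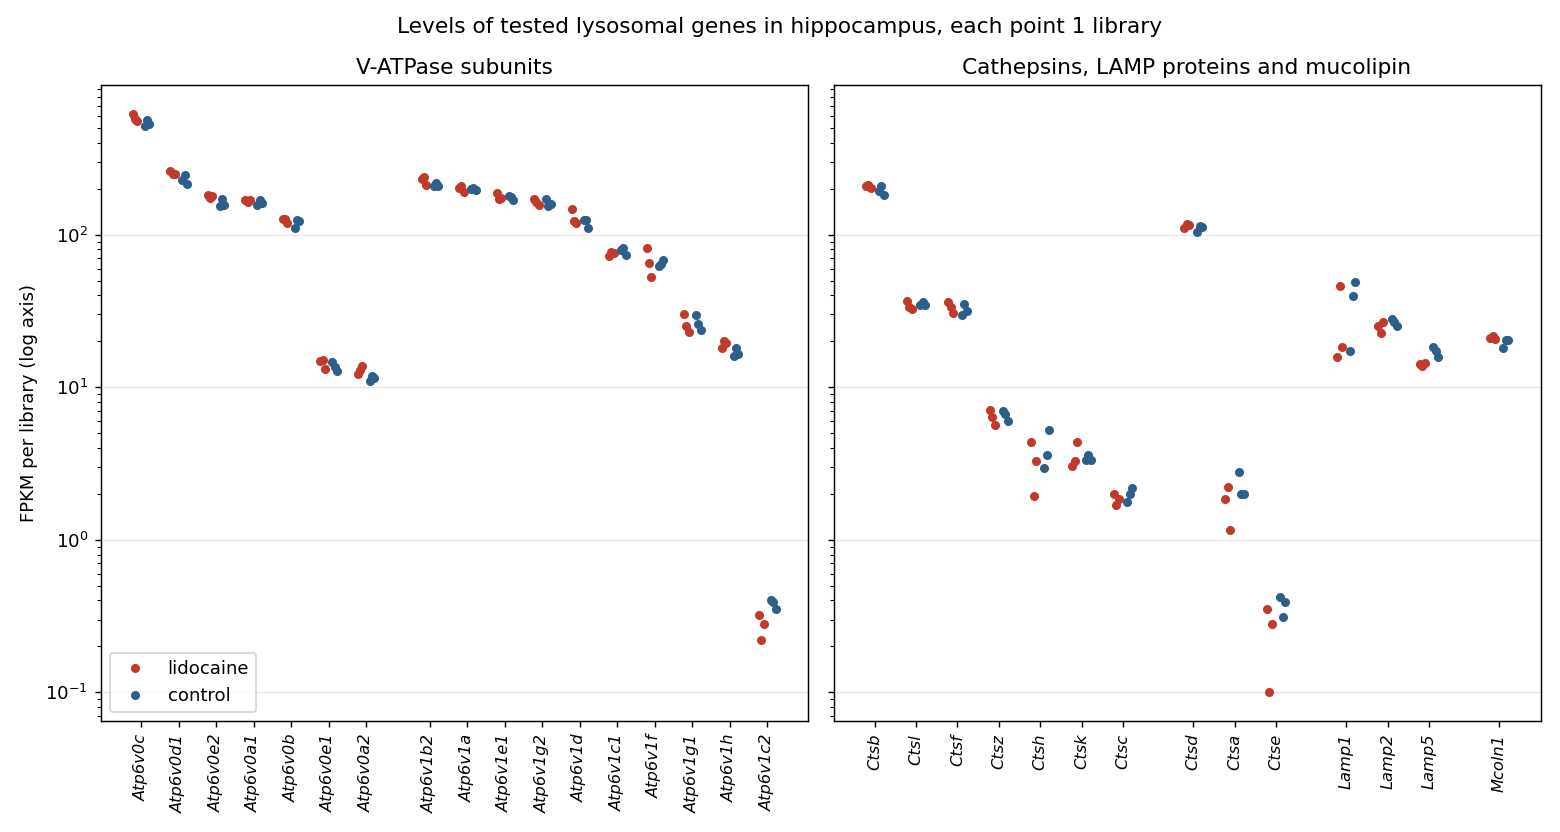
FPKM (the deposited level scaled for gene length and depth, log axis) of the tested lysosomal genes other than Atp6v1fnb, grouped by role. Each of the 3 lidocaine (red) and 3 control (blue) libraries is a point. Levels span from Atp6v0c, with a mean of 583 FPKM with lidocaine and 538 FPKM in controls, down to genes with few counts, and for most genes the 2 groups' points lie on top of each other.

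**Figure D2:**
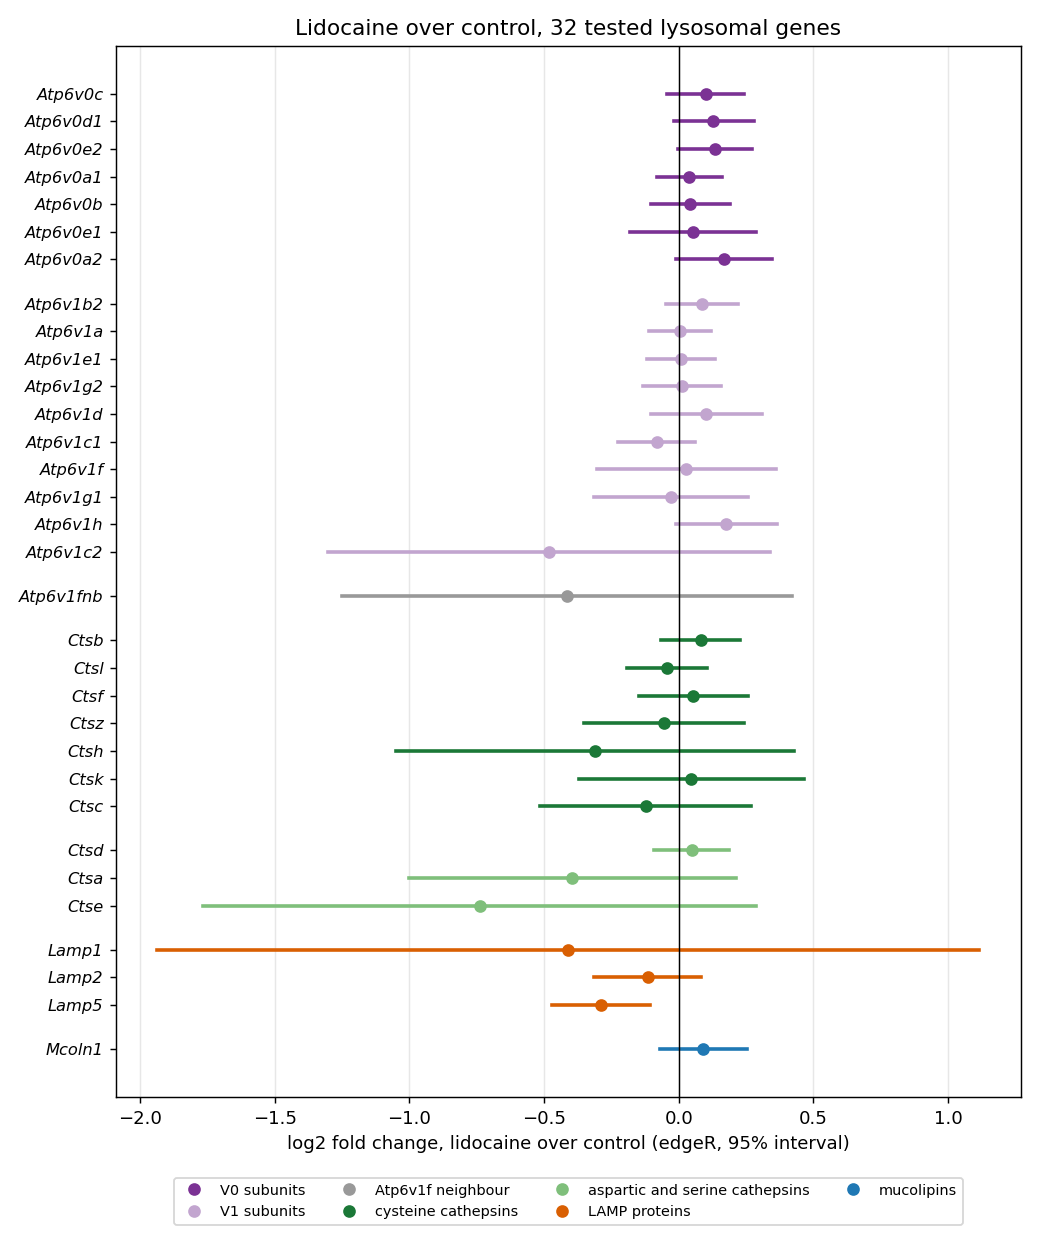
Log2 fold change of lidocaine over control with its 95% interval (edgeR) for the 32 tested genes, coloured by role. The 7 V0 subunits lie right of 0, the 3 LAMPs lie left of it, and the interval of Lamp5 is the one that does not cross 0.

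The V0 sector is the proton-carrying part of the pump. Of its 9 genes, 7 were tested, and all 7 had small positive fold changes, from 0.04 to 0.17 with a median of 0.10 on the log2 scale, while 49.9% of all tested genes had a positive one. None of the 7 passed edgeR's test (adjusted p of 0.995 to 0.996), none had an unadjusted p under 0.05, and all 7 intervals stayed within a 1.5-fold change. The most abundant was Atp6v0c, which encodes the proteolipid c subunit of the proton-carrying ring. Its FPKM placed it at the 99.8th percentile of genes above 0, at 619.5, 577 and 552 FPKM with lidocaine and 516, 568 and 531 FPKM in controls. The groups overlap, since control 2 lies above lidocaine 3, and the log2 fold change was 0.10 ± 0.06 (SE, 3 libraries each).

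Atp6v0e2, a small membrane subunit enriched in brain, had the smallest p of the V0 genes. It stood at 263, 250.1 and 264 CPM in lidocaine libraries and at 227, 251 and 229.96 CPM in control libraries. Control 2 lay above lidocaine 2, so the groups overlap, and the log2 fold change was 0.14 ± 0.06 (unadjusted p = 0.0557, adjusted p = 0.995 by edgeR). Atp6v0a2, an a subunit found on Golgi and endosome membranes, stood at 64.2, 68.6 and 74.5 CPM with lidocaine and at 58.7, 63.0 and 62.7 CPM in controls. Every lidocaine library lay above every control library, a pattern seen in 4.89% of all tested genes, yet the fold change of 0.17 ± 0.08 did not pass edgeR's test (unadjusted p = 0.0617, adjusted p = 0.995). Atp6v0a2 has fractional counts, as estimators give where reads are shared between transcripts or genes. Among the tested members, so do Atp6v0e1, Atp6v1h, Ctsa, Ctsh, Lamp1 and Lamp2.

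The other tested V0 genes were Atp6v0d1, which joins the 2 sectors (log2 fold change 0.13 ± 0.06), Atp6v0a1, the main neuronal a subunit (0.04 ± 0.05), Atp6v0b, another ring proteolipid (0.04 ± 0.06, or -0.011 without control 1), and Atp6v0e1 (0.05 ± 0.10). Summed over the V0 genes, the level was 1385, 1321 and 1297 FPKM with lidocaine and 1191, 1303 and 1212 FPKM in controls, a mean difference of 8.0%. Control 2 lay above lidocaine 3. On the CPM scale the summed difference was 6.1%. Each V0 gene's deviation was taken from its mean over the control libraries, on the log2 scale. The median deviation was 0.10, 0.09 and 0.08 in the lidocaine libraries and -0.06, 0.06 and -0.02 in the controls. Control 2 thus lay near the lidocaine libraries. Over the same libraries, the 8 neuronal markers summed to 7198.8 to 7294.3 CPM with lidocaine and to 6817.9 to 7237.9 CPM in controls. Their fold changes were positive for 5 markers and negative for 3. The most abundant, Slc17a7, averaged 3386.8 CPM with lidocaine and 3121.8 CPM in controls and so weighs most in the sum. The part of these markers in the V0 values was not tested. Atp6v0a4, typical of kidney, was listed at 0 in all 6 libraries, and Atp6v0d2, typical of osteoclasts, had 11 counts in total and was not tested.

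The V1 sector hydrolyses ATP to drive the pump. Of its 13 genes, 10 were tested; 7 fold changes were positive and 3 negative, with a median of 0.01 on the log2 scale, and none passed edgeR's test or had an unadjusted p under 0.05. Atp6v1b2, the B subunit isoform of brain, was the most abundant, at 231, 237 and 211 FPKM with lidocaine and 207, 219 and 208 FPKM in controls. Lidocaine 3 lies inside the control range, and the log2 fold change was 0.09 ± 0.06 (adjusted p = 0.995, edgeR). Atp6v1a, the catalytic A subunit, differed by 0.005 ± 0.049, and its interval was the narrowest of the 32 genes.

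Atp6v1h, a regulatory subunit needed for ATP hydrolysis to drive proton transport, had the smallest p of the V1 genes. It stood at 58.8, 65.7 and 64.5 CPM with lidocaine and at 52.6, 59.9 and 54.6 CPM in controls. The lowest lidocaine value lies under the highest control value, and the log2 fold change of 0.18 ± 0.08 gave an unadjusted p = 0.0599 and an adjusted p = 0.995 by edgeR. Atp6v1c2, a C subunit isoform of kidney and lung, was lower in every lidocaine library, but on few counts: 12, 8 and 10 with lidocaine and 13, 14 and 11 in controls. Such a separation downward was seen in 5.09% of all tested genes, and its fold change of -0.48 ± 0.35 did not pass (interval -1.30 to 0.34).

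Among the remaining V1 genes, the stalk subunits Atp6v1d (0.10 ± 0.09), Atp6v1e1 (0.01 ± 0.06), Atp6v1f (0.03 ± 0.14), Atp6v1g1 (-0.03 ± 0.12) and Atp6v1g2 (0.01 ± 0.06) and the assembly subunit Atp6v1c1 (-0.08 ± 0.06) each overlapped between groups. The sign of Atp6v1a turned without lidocaine 2 or control 3, that of Atp6v1e1 without lidocaine 1 or control 3, that of Atp6v1f without lidocaine 1, that of Atp6v1g1 without lidocaine 3 or control 1, and that of Atp6v1g2 without lidocaine 1 or control 2. Atp6v1fnb, the neighbour of Atp6v1f, differed by -0.42 ± 0.36 at about 1 CPM. The V1 genes summed to 1145, 1091 and 1025 FPKM with lidocaine and to 1071, 1068 and 1025 FPKM in controls, a mean difference of 3.1%. Atp6v1b1 and Atp6v1g3, both typical of kidney, were listed at 0 throughout, and Atp6v1e2, typical of testis, had 7 counts in total.

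Several pump subunits exist as paralogues that tissues use in different proportions, and these proportions can be compared by FPKM. Atp6v0a1 made up 91.1% ± 0.53 of the a subunit FPKM with lidocaine and 91.8% ± 0.20 in controls (SD, n = 3 each). Atp6v0a2 made up 6.69%, 7.11% and 7.30% in the lidocaine libraries and 6.50%, 6.51% and 6.54% in the control libraries. Each lidocaine share of Atp6v0a2 was above each control share, a difference of means of under 1 percentage point that was not tested. It rests on the same Atp6v0a2 values as the separation in CPM, and how often shares separate among other genes was not counted. Tcirg1, the a3 isoform known from osteoclasts, made up 1.84% ± 0.22 with lidocaine and 1.70% ± 0.19 in controls. The e subunit was mostly Atp6v0e2 (92.6% ± 0.61 with lidocaine, 92.2% ± 0.74 in controls). The G subunit was mostly the neuronal isoform Atp6v1g2 (86.3% ± 1.11 with lidocaine, 86.0% ± 0.99 in controls). The C subunit was almost all Atp6v1c1, at 99.56%, 99.71% and 99.63% in the lidocaine libraries and 99.5%, 99.52% and 99.53% in the control libraries. These shares did not overlap between groups either. The rest was Atp6v1c2, which had few counts, and the difference was not tested. Only Atp6v1b2 had counts for the B subunit in either group.

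**Figure D3:**
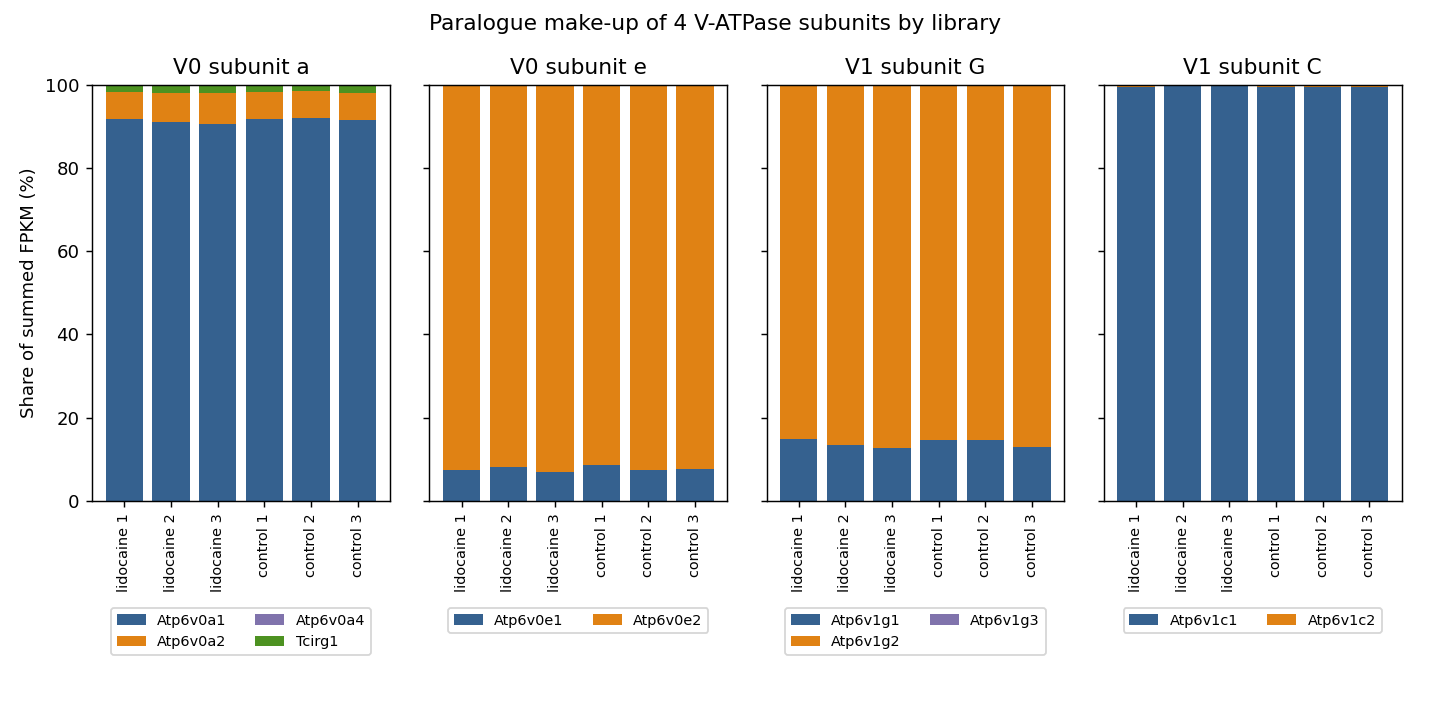
Share of the summed FPKM (percent) that each paralogue takes for the V0 subunits a and e and the V1 subunits G and C, in each of 3 lidocaine and 3 control libraries. Atp6v0a1, Atp6v0e2, Atp6v1g2 and Atp6v1c1 take most of the level in every library of both groups.

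Cysteine cathepsins are the largest family of lysosomal proteases. Of 13 genes, 7 were tested, with 3 positive and 4 negative fold changes, a median of -0.04 on the log2 scale and none called by edgeR or past an unadjusted p of 0.05. Ctsb, which cuts proteins both inside the chain and from its end, was the most abundant, at 680.0, 686 and 672 CPM with lidocaine and 639, 689.6 and 596 CPM in controls. Control 2 was the highest of the 6 libraries, so the groups overlap, and the fold change was 0.08 ± 0.06 (interval -0.06 to 0.23, adjusted p = 0.995 by edgeR). Ctsl, an endopeptidase, differed by -0.04 ± 0.06, and Ctsf by 0.06 ± 0.09.

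The less abundant cysteine cathepsins varied more between libraries. Ctsh, an aminopeptidase, stood at 4.37, 1.93 and 3.30 FPKM with lidocaine and 2.96, 3.61 and 5.21 FPKM in controls, a log2 fold change of -0.31 ± 0.32. Its lowest and highest values lie in different groups but the ranges overlap. Ctsc, which activates granule proteases of immune cells, differed by -0.12 ± 0.17, Ctsz by -0.05 ± 0.13 and Ctsk, known for digesting bone collagen, by 0.05 ± 0.18. The signs of Ctsz and Ctsk turned without lidocaine 3. Ctss, the cathepsin of microglia and antigen-presenting cells, was listed at 0 in all 6 libraries. All 10 microglial markers were tested, though Trem2 among them had at most 18.09 counts in a library. Whether the 0 of Ctss, or that of any other gene listed at 0, is a failed estimate or a measured level was not tested. Ctsj, Ctsq and Ctsr, known from rodent placenta, were also listed at 0. Ctsm, another placental cathepsin, had 1 count in total and Ctsw, known from cytotoxic lymphocytes, had 2.

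Among the aspartic and serine cathepsins, Ctsd was the most abundant. This aspartic protease, whose loss causes a neuronal ceroid lipofuscinosis, stood at 111, 118 and 116 FPKM with lidocaine and at 104, 114 and 113 FPKM in controls. Lidocaine 1 lies inside the control range, and the log2 fold change was 0.05 ± 0.06 (adjusted p = 0.995, edgeR). Ctse, an aspartic protease of immune cells and stomach, had 20, 6 and 14 counts with lidocaine and 22, 18 and 20 counts in controls. Its fold change of -0.74 ± 0.44 had an interval from -1.77 to 0.29 and did not pass edgeR's test, and lidocaine 1 lies inside the control range of counts. Ctsa, a serine carboxypeptidase that also protects neuraminidase, differed by -0.40 ± 0.26 at 4.49 to 8.44 CPM with lidocaine and 7.59 to 10.8 CPM in controls. Ctsg, a serine protease of neutrophils, was listed at 0 in all libraries.

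The LAMPs include the member with the smallest p of all 32. Of the 4 genes 3 were tested, and all 3 fold changes were negative, with a median of -0.29 on the log2 scale; the summed oligodendrocyte markers were also lower in the lidocaine libraries, and their part in the LAMP values was not tested. Lamp5, a LAMP of the nervous system that marks a class of cortical and hippocampal interneurons, stood at 48.8, 47.2 and 50.1 CPM with lidocaine and at 63.8, 59.97 and 54.8 CPM in controls. All 3 lidocaine libraries lay below all 3 control libraries. The means were 48.7 ± 1.47 CPM with lidocaine and 59.5 ± 4.54 CPM in controls (SD, n = 3 each). The log2 fold change was -0.29 ± 0.08, with an interval from -0.47 to -0.105. The unadjusted p of 0.00683 was the 72nd smallest of 13408, and edgeR's adjusted p was 0.995, so the difference did not pass. Lamp2, whose splice form LAMP2A takes up proteins in chaperone-mediated autophagy, differed by -0.12 ± 0.09, with lidocaine values of 73.8, 66.1 and 79.5 CPM and control values of 83.5, 79.6 and 74.4 CPM.

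Lamp1, the most widely used marker of lysosomes, split the libraries within both groups. It stood at 15.8, 46.2 and 18.4 FPKM with lidocaine and at 17.2, 39.4 and 48.7 FPKM in controls. Lidocaine 2, control 2 and control 3 were high, while lidocaine 1, lidocaine 3 and control 1 were low, so the split does not follow the groups. The coefficient of variation in CPM was 63.2% with lidocaine and 46.4% in controls, while the median over the 22 members of at least 50 CPM was 4.1% with lidocaine and 5.7% in controls. The log2 fold change was -0.41 ± 0.60 with an interval from -1.94 to 1.12. As a ratio of lidocaine over control, the interval runs from 0.26 to 2.17. Even a change of 2-fold in either direction, or a larger one downward, could thus not have been told from none. Without lidocaine 2 the fold change was -1.06, and without control 3, lidocaine 1 or lidocaine 3 it was -0.11, -0.13 or -0.20. Without control 1 it was -0.74. Lamp1 counts are fractional, and the part of read assignment in this spread was not tested. Because Lamp1 and Lamp2 dominate it, the summed LAMP level of 65.8 ± 14.7 FPKM with lidocaine and 78.9 ± 13.5 FPKM in controls overlaps between groups. Lamp3, known from dendritic cells, had 6 counts in total.

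**Figure D4:**
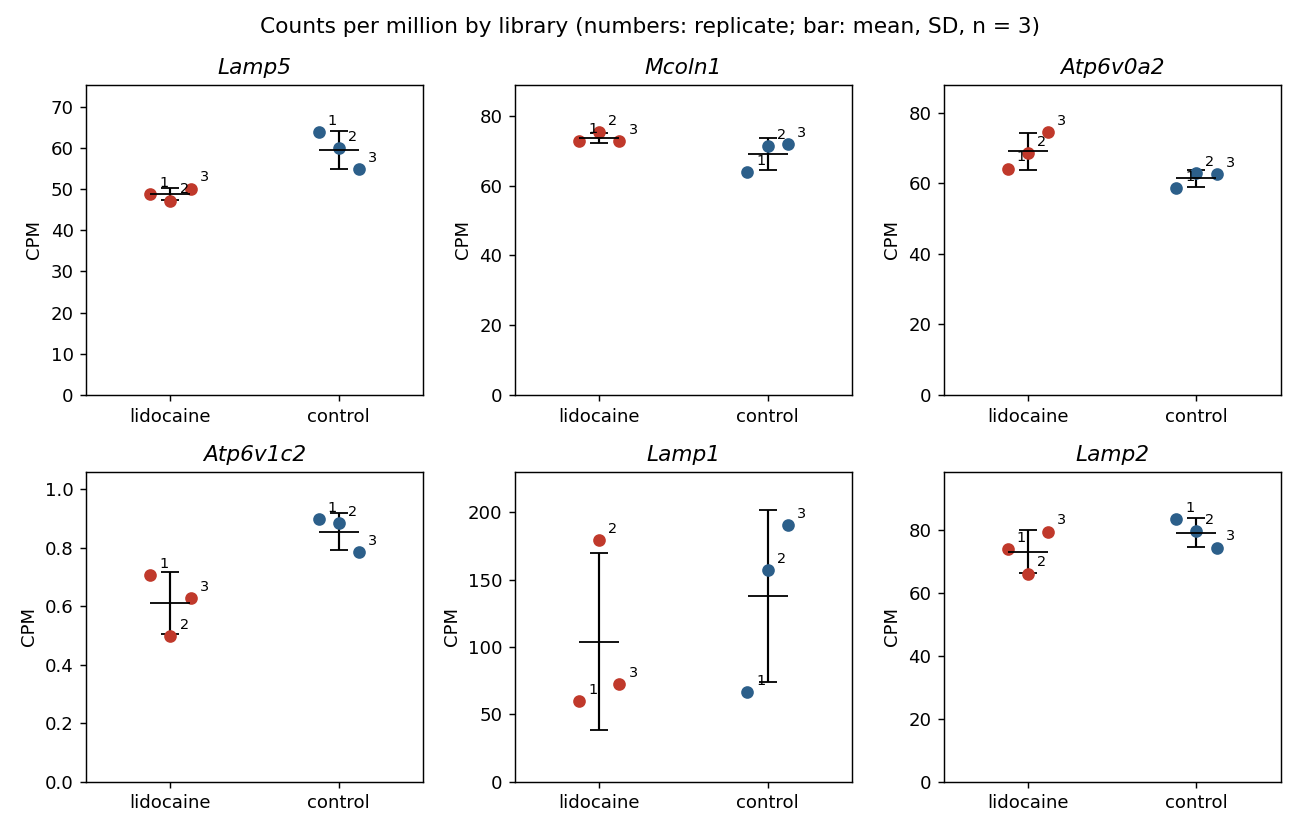
CPM in each library for Lamp5, Mcoln1, Atp6v0a2, Atp6v1c2, Lamp1 and Lamp2, with lidocaine left of control; horizontal bars are means, error bars are SD (n = 3) and numbers are replicate numbers. The first 4 genes are those whose groups do not overlap, and Lamp1 splits within each group.

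Mcoln1, the calcium channel of the lysosomal membrane whose loss causes mucolipidosis type IV, was the tested mucolipin. It stood at 72.9, 75.3 and 72.7 CPM with lidocaine and at 63.9, 71.3 and 72.0 CPM in controls. The lowest lidocaine value lay just above the highest control value, and the log2 fold change of 0.09 ± 0.07 did not pass edgeR's test (adjusted p = 0.995). With Atp6v0a2, Atp6v1c2 and Lamp5, it makes 4 of 32 members whose groups did not overlap, beside 9.98% of all tested genes. Mcoln2 was listed at 0 in all libraries and Mcoln3 had 5 counts in total.

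Other genes of the pathway, from lists of V-ATPase partners, hydrolases, membrane proteins, sorting receptors, regulators and cathepsin inhibitors, gave a like picture. Of 119 listed genes, 109 were in the table and 102 were tested. Among those not tested, RragB, Cst7 and Csta were listed at 0 in every library. M6pr, a sorting receptor, was listed at 0, 195.84 and 69.53 counts with lidocaine and at 0 in every control library. Whether these zeros are failed estimates was not tested. EdgeR called 0 of the 102 and DESeq2 called 0, with 5 at an unadjusted p under 0.05 by edgeR and 6 by DESeq2. Over all tested genes these shares were 4.36% for edgeR and 3.93% for DESeq2, near those of the lists. Differences were positive for 59 genes and negative for 43, and their median was 0.01 on the log2 scale. Medians by list were 0.01 for 13 V-ATPase partners, 0.03 for 38 hydrolases and activators, -0.01 for 25 membrane proteins, 0.07 for 5 sorting genes, -0.01 for 17 regulators and 0.05 for 4 inhibitors.

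The genes with the smallest p in each list were as follows. Cst6, a secreted cathepsin inhibitor, averaged 34.4 ± 1.95 CPM with lidocaine and 26.8 ± 0.80 CPM in controls, a log2 fold change of 0.36 ± 0.09 (adjusted p = 0.995 by edgeR, unadjusted p = 0.00303). Clcn7, the chloride-proton exchanger of the lysosome, averaged 104.6 ± 6.88 CPM with lidocaine and 86.2 ± 7.04 CPM in controls, a fold change of 0.28 ± 0.08. All 3 lidocaine libraries lay above all 3 controls for both genes, a pattern seen in 4.89% of all tested genes. Of the listed genes, Tfe3, Psap and Lamtor4 also showed it. Aga and Ncoa7 showed the reverse, which was seen in 5.09% of all tested genes. Tfe3, a transcription factor that binds the CLEAR element, had 204, 148 and 187 estimated counts with lidocaine and 92.9, 95.6 and 122 in controls (0.64 ± 0.19, fractional counts). Its relative Tfeb, named for that role and not by the rule, averaged 14.4 ± 0.76 CPM with lidocaine and 13.9 ± 2.24 CPM in controls (0.05 ± 0.15). Aga, which cleaves sugars from asparagine, was lower by the point estimate (-0.31 ± 0.11), as was Ncoa7, a V-ATPase-binding TLDc protein (-0.57 ± 0.19); both have fractional counts and neither passed edgeR's test (adjusted p = 0.995). The next in each list were Cst3 (0.10 ± 0.12), Slc17a5 (0.87 ± 0.48), Lamtor2 (-0.22 ± 0.11), Psap (0.10 ± 0.05) and Rnasek (0.12 ± 0.08). The sorting receptors Igf2r (0.16 ± 0.10) and Sort1 (0.08 ± 0.08) had the smallest p of their list.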

How the data were processed

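Per the labels' protocols, RNA of the hippocampus was isolated with RNeasy columns, and SMARTer mRNA libraries were sequenced. The submitters' processing notes name the build mm10; which aligner, counter and annotation were used is not given in the sources used here. Estimated counts per gene and library, not normalised, were deposited by the authors, per the file headers; 30.4% of genes have fractional ones. FPKM values, scaled for length and depth, were deposited beside them. Symbols are those of the table.

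Counts were rounded, filtered with filterByExpr on the group (13408 genes left), scaled by TMM (factors 0.991 to 1.009) and compared by the robust, two-sided quasi-likelihood test of edgeR 4.0.16 (R 4.3.3). Genes were called at an adjusted p under 0.05 (Benjamini-Hochberg over all tested genes). Standard errors and 95% intervals come from the F statistic. CPM uses TMM-scaled library sizes; levels of different genes are compared by FPKM. The biological coefficient of variation was 17.8%. On simulated counts the test called 5.2% of genes changed 1.25-fold and 33.6% of those changed 1.5-fold. It called 56.8% of those changed 2-fold and 82.8% of those changed 4-fold. The changed genes were drawn from all tested genes, so these shares are not those of the members. A permutation test of 3 against 3 libraries cannot go below p = 0.1. Alternatives used DESeq2 1.42.0, limma 3.58.1 (voom, and log2(FPKM + 1)), other filters and scalings, a replicate block and leaving out each library.

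Members and lists were chosen with earlier results of these data known. Members given library by library were, in each role, the most abundant, that with the smallest p, those whose groups did not overlap and those with a log2 fold change of at least 0.5 in size, plus Lamp2, Ctsh and Ctsa, chosen after their values were seen. Of the wider lists, the 2 genes with the smallest p were named.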

Additional observations from a re-analysis of the deposited data

How the results depend on the processing

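Members and wider lysosomal genes called stayed at 0 under all 17 alternative fits, and in the main fit at an adjusted p under 0.1. The number of genes called over the whole table was 2, and it moved to 23 with DESeq2, 5 with log2(FPKM + 0.1), 4 at an adjusted p under 0.1, 1 with log2(FPKM + 1) at a mean FPKM of at least 1, and 0 with a count of at least 10 in every library, with genes of whole counts alone or with the replicate block; leaving out a library gave 0 to 6. Of 532 alternative member fold changes, 520 kept their direction. The other 12, in 8 members, changed sign when 1 library was left out, with ranges of -0.011 to 0.076 for Atp6v0b, -0.019 to 0.022 for Atp6v1a, -0.019 to 0.038 for Atp6v1e1, -0.14 to 0.16 for Atp6v1f, -0.138 to 0.061 for Atp6v1g1, -0.021 to 0.062 for Atp6v1g2, -0.13 to 0.15 for Ctsk and -0.128 to 0.017 for Ctsz; the cause was not tested. Lamp5 kept a negative fold change throughout (-0.34 to -0.23), with adjusted p from 0.602 to 1. Lamp1 ranged from -1.06 without lidocaine 2 to -0.11 without control 3. Libraries with the same replicate number deviated together with correlations of 0.045, 0.027 and -0.001, so the replicate block pairs libraries by number only; with it 0 members were called. With 3 libraries per group, differences of low-count genes such as Ctse or Atp6v1c2 were not detectable unless large.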
